A study of Mus musculus with 16 samples.

Results

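The genes of the pluripotency network followed here were Nanog, Pou5f1, Sox2, Klf4, Prdm14, Lin28a, Esrrb, Tfcp2l1, Tdgf1 and Sall4, and the question was which histone marks they carried in mouse spermatids with and without the histone variant H2A.B. They were chosen by name and located by the GENCODE vM21 annotation of the mm10 genome, where they make up 10 of 21938 protein-coding genes and 10 of 55413 annotated genes on chromosomes 1 to 19, X and Y. For each gene, the fragments whose midpoint lay within 1 kb of the annotated 5′ end (the start window) or inside the annotated gene (the gene body) were counted in each library.

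Pluripotency is the capacity of early embryonic cells to form all tissues of the body, and it rests on a network of transcription factors around Pou5f1 (also called Oct4), Sox2 and Nanog that bind their own and each other's genes. Trimethylation of histone H3 at lysine 4 (H3K4me3) is found at promoters that are active or poised, trimethylation at lysine 27 (H3K27me3) is laid down by the Polycomb repressive complex over silent developmental genes, and trimethylation at lysine 9 (H3K9me3) marks constitutive heterochromatin. Male germ cells shut down most of this network as they differentiate, and their developmental genes are known to carry Polycomb marks while some also carry H3K4me3.

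H2A.B is a short histone H2A variant made in the testis, and the 3 X-linked genes for it (H2afb1, H2afb2 and H2afb3) were disrupted together by CRISPR/Cas9. The 16 libraries come from haploid spermatids, sorted alive from testis by Hoechst and propidium iodide staining, of 2 hemizygous knockout (KO) males and 2 wild-type (WT) brothers, all unmated and 2 months old. KO and WT brothers come from a single strain, edited in zygotes of mixed B6 and SJL origin and then backcrossed to C57BL/6J. By the paper's SNP genotyping, backcrossed KO animals were mostly but not wholly C57BL/6J, so other sequence may differ between KO and WT. The KO group represents 1 line in which every cell carries the mutations. In each animal, AutoCUT&RUN, in which an antibody tethers a nuclease that cuts out the DNA around its target, was run with antibodies to H3K4me3, H3K27me3 and H3K9me3 and with IgG as the control for untargeted cutting. Replicate 1 and replicate 2 are the 2 pairs of brothers. The titles of all replicate 1 libraries carry the same number codes and those of all replicate 2 libraries carry others. Differences between the pairs thus cannot be told apart from what these codes mark.

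The libraries held between 159611 and 6746382 distinct fragments, where fragments with the same 2 ends in a library count as 1. The IgG libraries were the shallowest (159611 to 270598), and H3K27me3 ranged from 200457 in WT replicate 2 and 711758 in KO replicate 2 to 3806026 in KO replicate 1, so that 1 fragment is a large step in the shallow libraries. Of the deposited fragments, 33.6% to 83.4% repeated the ends of another fragment in the same library. Levels below are given as FPM, the distinct fragments counted for every 1000000 distinct fragments of the library, and intervals cover counting error only. The 3 disrupted genes are highly similar, so that short reads may be placed at the wrong copy, and they held only 35 fragments over all libraries, of which 13 H3K4me3 fragments were in KO and 9 in WT, counts over whole genes that do not check the genotype, since the deleted bases were not counted apart. Summed H3K4me3 over the start windows of 15 spermatid genes was 298 to 340 FPM in KO and 205 to 284 in WT, with 14 of the 15 above the protein-coding median, while 0 of 7 Sertoli, 0 of 5 Leydig and 0 of 6 peritubular and blood cell genes were above it, with sums of at most 5.96, 1.77 and 2.65 in any library and no H3K4me3 fragment at Cyp11a1 or Csf1r. Of 6 meiotic genes 4 were above the median, with a sum of 64.5 to 64.6 in KO and 51.0 to 61.0 in WT, and of 7 spermatogonial genes 2 were, with a sum of 11.5 to 31.9.

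Sequences are shown for the promoters that carried the clearest contrasts: Klf4 and Sox2, which are both rich in CG dinucleotides but carried different marks, Tdgf1, which had H3K27me3 near the level of Sox2 with fewer CG dinucleotides, Nanog, which had almost no fragments of any mark, and the pair of Esrrb promoters. Each is the 250 bases before the transcription start in the RefSeq promoter table for GRCm38.p6, written from 5′ to 3′ on the strand of the gene, with every CG dinucleotide in capitals. The table matched 8 of the 10 genes. The RefSeq start of Sox2 lies 410 bp from the GENCODE start.

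Klf4, chr4:55532476-55532725, minus strand: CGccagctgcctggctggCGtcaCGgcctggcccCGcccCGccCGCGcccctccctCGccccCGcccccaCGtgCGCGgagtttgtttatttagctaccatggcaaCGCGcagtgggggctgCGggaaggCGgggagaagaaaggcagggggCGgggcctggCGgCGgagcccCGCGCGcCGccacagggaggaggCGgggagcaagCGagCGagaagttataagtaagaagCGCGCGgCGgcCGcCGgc

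Sox2, chr3:34649745-34649994, plus strand: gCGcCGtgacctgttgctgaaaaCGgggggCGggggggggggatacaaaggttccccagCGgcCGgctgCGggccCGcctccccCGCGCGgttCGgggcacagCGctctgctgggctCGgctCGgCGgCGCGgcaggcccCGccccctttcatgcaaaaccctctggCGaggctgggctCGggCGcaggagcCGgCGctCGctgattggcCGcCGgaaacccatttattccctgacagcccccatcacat

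Tdgf1, chr9:110946159-110946408, minus strand: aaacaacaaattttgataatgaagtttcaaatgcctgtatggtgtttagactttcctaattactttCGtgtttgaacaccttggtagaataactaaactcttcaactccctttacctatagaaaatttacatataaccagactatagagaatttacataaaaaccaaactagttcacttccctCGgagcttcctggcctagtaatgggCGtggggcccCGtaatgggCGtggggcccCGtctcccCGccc

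Nanog, chr6:122707239-122707488, plus strand: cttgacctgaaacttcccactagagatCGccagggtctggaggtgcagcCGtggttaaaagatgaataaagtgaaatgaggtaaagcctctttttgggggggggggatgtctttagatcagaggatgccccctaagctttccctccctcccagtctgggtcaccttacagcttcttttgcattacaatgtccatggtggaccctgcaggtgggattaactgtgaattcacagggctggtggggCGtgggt

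Esrrb, annotated gene start, chr12:86360867-86361116, plus strand: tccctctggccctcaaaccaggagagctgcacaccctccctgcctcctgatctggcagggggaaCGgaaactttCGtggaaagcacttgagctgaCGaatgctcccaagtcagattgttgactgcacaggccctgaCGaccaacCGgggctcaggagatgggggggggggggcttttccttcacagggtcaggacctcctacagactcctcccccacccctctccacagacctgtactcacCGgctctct

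Esrrb, principal transcript, chr12:86421394-86421643, plus strand: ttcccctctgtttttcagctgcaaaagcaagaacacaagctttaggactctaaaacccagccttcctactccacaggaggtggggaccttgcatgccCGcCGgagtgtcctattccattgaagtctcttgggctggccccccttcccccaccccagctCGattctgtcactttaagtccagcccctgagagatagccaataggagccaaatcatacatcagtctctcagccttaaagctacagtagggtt

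The start windows of Klf4 and Sox2 held 179 and 171 CG dinucleotides, more than 98.0% and 97.1% of protein-coding windows, against a median of 61. The other 8 members held 34 (Nanog) to 80 (Prdm14), and Tdgf1, with 71, was near the median. In the 250 bases printed, Klf4 has 32, Sox2 27, Tdgf1 7 and Nanog 3, and the Esrrb promoters have 6 at the gene start and 3 at the principal transcript. Motifs were searched as exact letters on both strands of the whole promoter entries, which add 50 bases after the start. GGGCGG is the core of the GC box and itself a carrier of a CG dinucleotide. With overlapping matches counted once, it was found at 3 places in Klf4, at 2 in Sox2 and at 1 each in Tdgf1, Lin28a and Pou5f1. It is present in 35.7% of all promoters. CCAAT was found in Sox2, Pou5f1 and the principal Esrrb promoter and is present in 37.4% of all promoters. The octamer ATGCAAAT, which Oct proteins bind, was in none of the promoters of the 8 members in the table (all but Prdm14 and Sall4) and in 1.74% of all promoters.

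**Figure D1:**
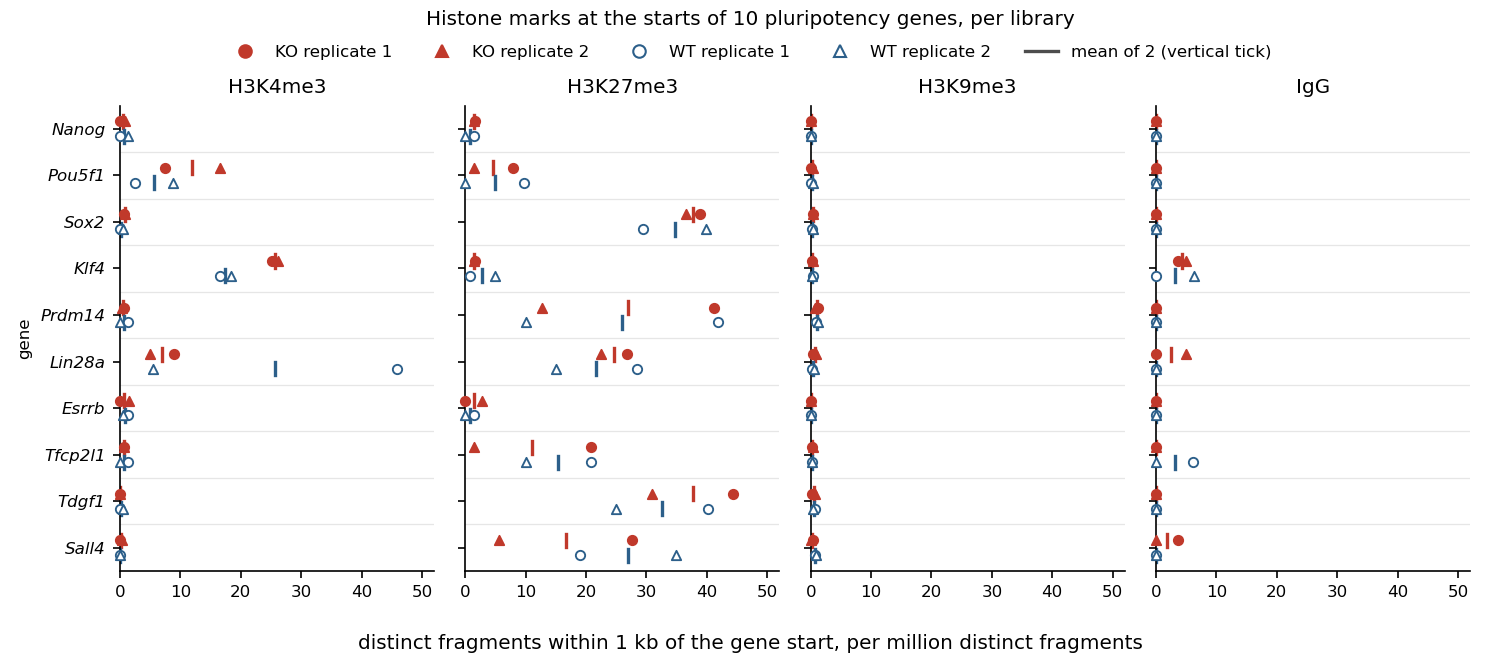
Distinct fragments within 1 kb of each gene start, in FPM (horizontal axis), in the 16 libraries, with 1 panel per antibody; filled red symbols are KO, open blue symbols WT, circles replicate 1, triangles replicate 2 and vertical ticks the mean of 2. H3K27me3 lay between 24.9 and 44.4 at Sox2 and Tdgf1, H3K4me3 between 16.6 and 26.2 at Klf4 with 1 Lin28a library at 45.9, and H3K9me3 at or below 1.20.

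In spermatids the median level of these genes lay above that of all protein-coding genes for H3K27me3 and below it for H3K4me3, at their starts and over their bodies. Over the 4 libraries of each mark, the median of the 10 members' mean levels was 17.5 FPM for H3K27me3 at the start windows, against a median of 0.351 over all protein-coding windows, and all 10 members were above that median. In cells pooled by sorting, a mark on fewer cells and less of it per cell cannot be told apart. For H3K4me3 the members' median was 0.615 against 3.24 for all windows, and 3 members (Klf4, Lin28a and Pou5f1) were above it. Against IgG, 5 of the 10 start windows were called higher for H3K27me3 (Sox2, Tdgf1, Prdm14, Lin28a and Sall4) and 3 of 10 for H3K4me3 (Klf4, Lin28a and Pou5f1) by limma-voom at an adjusted p under 0.05. A window was tested only with at least 10 fragments over the libraries of the fit, which 9 members reached for H3K27me3 and 3 for H3K4me3. Where an animal is left out below, all its libraries in that fit leave together. In tests against IgG its IgG library is thus left out with its mark library. Among all windows tested, 65.2% were called higher than IgG for H3K27me3 and 73.6% for H3K4me3, so neither count of calls sets the members apart. The fitted differences depend on a small added count where IgG has no fragments, so sizes against IgG are given below as ratios of pooled fragments. Where IgG had none, a floor of 3 fragments over the 4 IgG libraries (3.79 FPM) gives a lower bound. Where IgG had any, its own count was used, even below that floor, so ratios and bounds cannot be ranked against each other. A pooled ratio weights each library by its depth, so it can differ from the ratio of the mean level to the floor, and for H3K27me3 it mainly reflects replicate 1.

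Ordered by the mean H3K27me3 level at the start (± SD, n = 4), Sox2 (36.2 ± 4.74) was followed by Tdgf1 (35.1 ± 8.80), Prdm14 (26.4 ± 17.5), Lin28a (23.2 ± 5.996), Sall4 (21.8 ± 12.6), Tfcp2l1 (13.2 ± 9.37), Pou5f1 (4.74 ± 4.76), Klf4 (2.17 ± 1.92), Nanog (1.09 ± 0.733) and Esrrb (1.05 ± 1.34). Each neighbouring pair in this order differed by less than the larger SD of the pair. For H3K4me3 the order was Klf4 (21.6 ± 4.84), Lin28a (16.3 ± 19.8) and Pou5f1 (8.79 ± 5.78), and the other 7 members lay between 0.0736 (Sall4) and 0.802 (Esrrb).

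Of the core factors, Sox2 stood far from Pou5f1 and Nanog. Sox2 (chr3:34650405-34652461, plus strand, a gene inside the noncoding transcript Sox2ot) encodes the HMG-box partner of Pou5f1. Its H3K27me3 level at the start was 38.9 and 36.5 FPM in the KO libraries (replicate 1, then replicate 2) and 29.4 and 39.9 in the WT libraries, from 148, 26, 85 and 8 fragments. The 4 libraries lay close together and KO and WT overlapped, while all 4 IgG libraries had no fragment there. The mean of 36.2 ± 4.74 (SD, n = 4) was above 95.3% of protein-coding windows, and the pooled level was at least 9.25-fold above IgG, the bound set by the floor (limma-voom, adjusted p 2.59e-05). H3K4me3 had 1, 3, 0 and 1 fragments in the same order. The H3K27me3 did not stop at the start window: 1531 fragments fell within 10 kb of the start, in 40 of 40 bins of 500 bp, and the window within 1 kb held 17.4% of them, the lowest share of the members with H3K27me3 calls at the start.

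Pou5f1 (chr17:35506018-35510772, plus strand, overlapped on the other strand by Gm19553) encodes the POU-domain factor at the centre of the network, and it carried low levels of both marks. H3K4me3 at its start was 7.42 and 16.5 FPM in KO and 2.55 and 8.71 in WT, from 10, 56, 2 and 19 fragments. KO replicate 2 was the highest, and KO replicate 1 lay below WT replicate 2, so the groups overlapped. The mean of 8.79 ± 5.78 (SD, n = 4) was above 62.9% of windows, and the pooled level, to which KO replicate 2 gave 56 of 87 fragments, was at least 2.98-fold above IgG (limma-voom, adjusted p 0.0249; 0.000583 to 0.705 over 18 alternatives). That call was lost without KO replicate 1 (adjusted p 0.139) or KO replicate 2 (0.152) and under the other scaling (0.705). H3K27me3 there was 7.88 and 1.40 FPM in KO and 9.68 and 0 in WT, from 30, 1, 28 and 0 fragments. Both replicate 1 libraries were high and both replicate 2 libraries, the shallow ones, low. The difference from IgG missed the threshold (limma-voom, adjusted p 0.289). Without replicate 2 the IgG libraries of that pair leave the fit too. A single library of each antibody then remains per genotype, so no p is given for that fit. Around the start, 87 of 196 H3K4me3 fragments within 10 kb (44.4%) and 59 of 115 H3K27me3 fragments (51.3%) lay within 1 kb.

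Nanog (chr6:122707489-122714633, plus strand), the homeodomain factor that stabilises the pluripotent state, had almost no fragment at its start. H3K27me3 counts were 6 and 1 in KO and 4 and 0 in WT, H3K4me3 counts 0, 3, 0 and 3, and H3K9me3 and IgG had none. Within 10 kb of the Nanog start, the fullest 500-bp bin of both marks was centred 4.25 kb upstream (chr6:122702989-122703488). This bin lay between genes, 4210 bp from the nearest annotated transcript start, that of Gm10224. It held 4, 7, 11 and 6 H3K4me3 fragments and 25, 1, 39 and 2 H3K27me3 fragments in the same order of libraries. Each library of both marks thus had fragments there, though only 1 and 2 for H3K27me3 in the replicate 2 libraries. The Nanog start window itself held 6 H3K4me3 and 11 H3K27me3 fragments in all. Because the bin was picked as the fullest in these data, it was not tested against IgG.

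Klf4 was the one member with clear H3K4me3 and little H3K27me3. Klf4 (chr4:55527143-55532466, minus strand) encodes a zinc finger factor that, together with Pou5f1 and Sox2, can reprogram somatic cells, and its transcript is known from haploid germ cells. H3K4me3 at its start was 25.2 and 26.2 FPM in KO and 16.6 and 18.3 in WT, from 34, 89, 13 and 40 fragments. Both KO libraries were above both WT libraries. The mean of 21.6 ± 4.84 (SD, n = 4) was above 90.4% of protein-coding windows, and IgG held 1, 1, 0 and 1 fragments, which gave a pooled ratio of 6.02 (95% interval 2.03 to 29.5; limma-voom, adjusted p 0.00494; 0.000254 to 0.352 over 18 alternatives). H3K27me3 had 6, 1, 2 and 1 fragments. The H3K4me3 call was lost without KO replicate 1 (adjusted p 0.129) or KO replicate 2 (0.110), and when libraries were scaled to the fragments in all start windows (0.230). H3K4me3 at Klf4 was broad, with 1135 fragments within 10 kb in 40 of 40 bins and 15.5% of them within 1 kb, and the fullest bin was 2.25 kb upstream of the start, with 16, 41, 12 and 14 fragments. H3K27me3 had 194 fragments within 10 kb, 10 of them within 1 kb, and its fullest bin, 9.25 kb downstream of the start and beyond the gene, held 28, 0, 9 and 0 fragments.

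Prdm14 and Sall4 are zinc finger regulators that act in germ cells as well as in embryonic stem cells, Prdm14 in the specification of primordial germ cells and Sall4 in spermatogonia. H3K27me3 at the start of Prdm14 (chr1:13113457-13127163, minus strand) was 41.3 and 12.6 FPM in KO and 41.8 and 9.98 in WT, from 289 fragments in all, of which replicate 2 gave 9 in KO and 2 in WT. The 2 libraries of replicate 1 were alike and those of replicate 2 lower in both genotypes, so KO and WT overlapped. The pooled level, set almost wholly by replicate 1, was at least 10.02-fold above IgG (limma-voom, adjusted p 0.000475), and H3K4me3 held 3 fragments over all 4 libraries. At Sall4 (chr2:168748332-168767943, minus strand) H3K27me3 was 27.6 and 5.62 FPM in KO and 19.02 and 34.9 in WT, from 105, 4, 55 and 7 fragments. The lowest and the highest value were both in shallow libraries. The pooled ratio to IgG, which had 1 fragment, was 17.8 (95% interval 3.15 to 706, limma-voom, adjusted p 0.00169), and H3K4me3 held 1 fragment in all. That IgG level (1.26 FPM) is below the floor used at Prdm14, so this ratio cannot be set beside the Prdm14 bound. With windows of 500 bp instead of 1 kb on either side, the Sall4 call was lost (adjusted p 0.174). In both genes the H3K27me3 lay downstream of the annotated start, with the fullest bin 2.25 kb into the gene (116 fragments at Prdm14, 115 at Sall4), and the principal Sall4 transcript starts 742 bp inside the gene, where a window of the same size held 183, 16, 112 and 8 H3K27me3 fragments.

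Lin28a and Tdgf1 are the members that are no transcription factors. Tdgf1 (chr9:110939603-110946158, minus strand), the Cripto co-receptor for the ligand Nodal, had 44.4 and 30.9 FPM of H3K27me3 at its start in KO and 40.1 and 24.9 in WT, from 169, 22, 116 and 5 fragments. In each pair KO was above WT, but the values of the 2 genotypes interleaved, and with fragments that share a start or an end counted once the levels were 34.3 and 31.5 in KO and 35.3 and 26.9 in WT, so that KO was below WT in the first pair. The mean of 35.1 ± 8.80 (SD, n = 4) was above 94.9% of windows, and the pooled level was at least 10.8-fold above IgG (limma-voom, adjusted p 2.64e-05), and H3K4me3 had a single fragment in WT replicate 2. The H3K27me3 was centred on the promoter, with the fullest bin 0.25 kb upstream of the start and 50.4% of the fragments within 10 kb lying within 1 kb.

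Lin28a (chr4:134003330-134018841, minus strand) encodes an RNA-binding protein that blocks maturation of let-7 microRNAs, and it was the only member called for both marks at its start. H3K27me3 at its start was 26.8 and 22.5 FPM in KO and 28.4 and 15.0 in WT, from 102, 16, 82 and 3 fragments, with overlapping groups. The pooled ratio to IgG, which had 1 fragment and so lay below the floor, was 21.1 (95% interval 3.75 to 838, limma-voom, adjusted p 0.000835). H3K4me3 there was 8.90 and 5.01 FPM in KO and 45.9 and 5.50 in WT, from 12, 17, 36 and 12 fragments. WT replicate 1 was far above the other 3 libraries, which lay close together. In that library 14 of the 36 fragments ended at the same base, 697 bp inside the gene in a coding exon and 3 bp from the start of the opposite-strand transcript Gm13061, and 25 ended within 5 bp of it. When fragments that share a start or an end were counted once, the 4 libraries held 11, 16, 13 and 10 fragments, or 9.16, 5.40, 18.0 and 5.11 when scaled the same way. The difference of H3K4me3 from IgG (limma-voom, adjusted p 0.0444; 9.87e-05 to 0.698 over 18 alternatives) missed the threshold with that count (0.0829), without WT replicate 1 (0.153) and without KO replicate 1 (0.321) or 2 (0.0753). Of 804 windows with at least 20 fragments in that library, 22 (2.74%) kept fewer than 50% of them when counted that way.

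**Figure D2:**
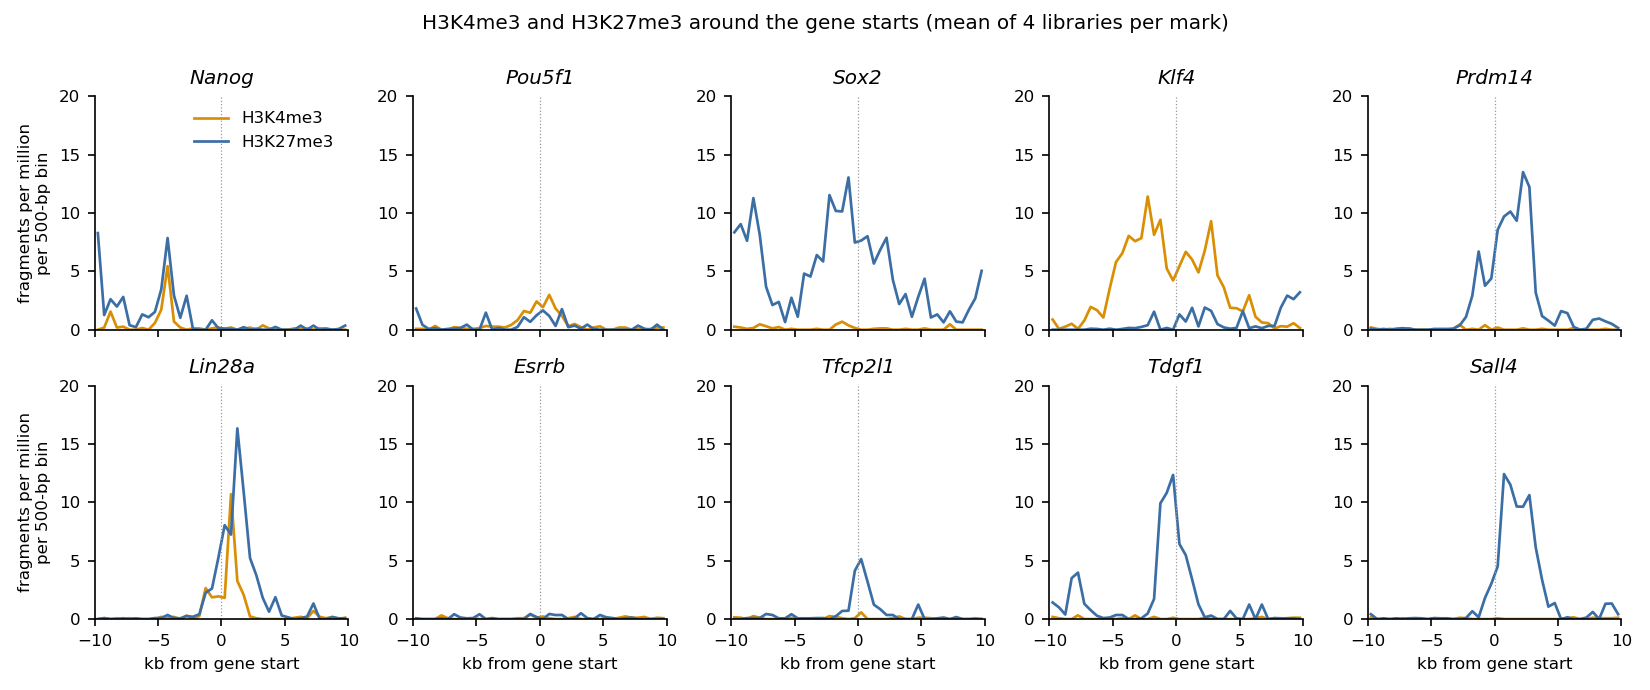
H3K4me3 (orange) and H3K27me3 (blue) in 500-bp bins from 10 kb before to 10 kb after each gene start, as FPM averaged over the 4 libraries of each mark; negative distances are upstream on the strand of the gene. H3K27me3 lies on both sides of the start at Sox2 and Tdgf1 and mainly downstream of it at Prdm14 and Sall4, H3K4me3 covers Klf4, both marks lie at Lin28a and 4.25 kb before Nanog, and Esrrb is flat at its annotated start.

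Esrrb and Tfcp2l1, transcription factors of the naive pluripotent state, kept their marks away from the annotated start or at separate places. The annotated start of Esrrb (chr12:86361117-86521628, plus strand) held 0, 2, 4 and 0 H3K27me3 and 0, 5, 1 and 1 H3K4me3 fragments. The principal coding transcript starts 60527 bp downstream, and H3K27me3 in the window around that start was 31.8 and 33.7 FPM in KO and 31.8 and 39.9 in WT, against 5, 5, 0 and 3 fragments of H3K4me3 (H3K27me3 against H3K4me3, log2 difference 4.58, limma-voom, adjusted p 7.58e-10). The stretch from 58 to 78 kb (chr12:86419117-86439116), chosen after the values were seen, held 677, 89, 531 and 28 H3K27me3 fragments, or 178, 125, 184 and 140 FPM in the same order. All 4 libraries were high there, and the genotypes overlapped. H3K4me3 in the same stretch amounted to 8, 21, 0 and 8 fragments, and most of it lay further downstream. A stretch from 78 to 84 kb, inside the gene and with its fullest bin of 2 kb in an intron 20233 bp from the nearest annotated transcript start, held 3, 40, 3 and 19 H3K4me3 fragments, or 2.23, 11.8, 3.82 and 8.71 FPM. Both replicate 2 libraries were higher than both replicate 1 libraries there, and H3K27me3 had 8, 1, 7 and 0 fragments. More H3K4me3 lay from 106 to 114 kb (chr12:86467117-86475116), around the start of the shorter transcript Esrrb-206, with 25, 56, 13 and 29 fragments, or 18.5, 16.5, 16.6 and 13.3 FPM. H3K27me3 held 36, 4, 21 and 1 fragments there.

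Tfcp2l1 (chr1:118627945-118685168, plus strand) had H3K27me3 at its start and H3K4me3 near its end. At the start H3K27me3 was 20.8 and 1.40 FPM in KO and 20.7 and 9.98 in WT, from 79, 1, 60 and 2 fragments. The replicate 1 libraries were level and the shallow replicate 2 libraries lower. The pooled ratio to IgG, which had 1 fragment and so lay below the floor, was 14.8 (95% interval 2.61 to 587). The test against IgG missed the threshold (limma-voom, adjusted p 0.136, with 1.82e-05 to 0.468 over 17 alternatives). With the animal as a replicate block the test passed (0.0171). The lowest value of the range came from the fit without replicate 2. There the IgG libraries of that pair were left out too, and a single library of each antibody remained per genotype. Of 200 H3K27me3 fragments within 10 kb, 71.0% lay within 1 kb, the most confined pattern of the members with H3K27me3 above 10 FPM. H3K4me3 at the start had 4 fragments in all, but the stretch from 44 to 52 kb (chr1:118671945-118679944), over the last coding exons and the 3′ UTR, held 37, 97, 23 and 57 H3K4me3 fragments, or 27.5, 28.6, 29.3 and 26.1 FPM. The 4 libraries differed little, H3K27me3 had 2, 1, 1 and 0 fragments there, and no start of a Tfcp2l1 transcript is annotated in this stretch, which was likewise chosen after the values were seen.

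**Figure D3:**
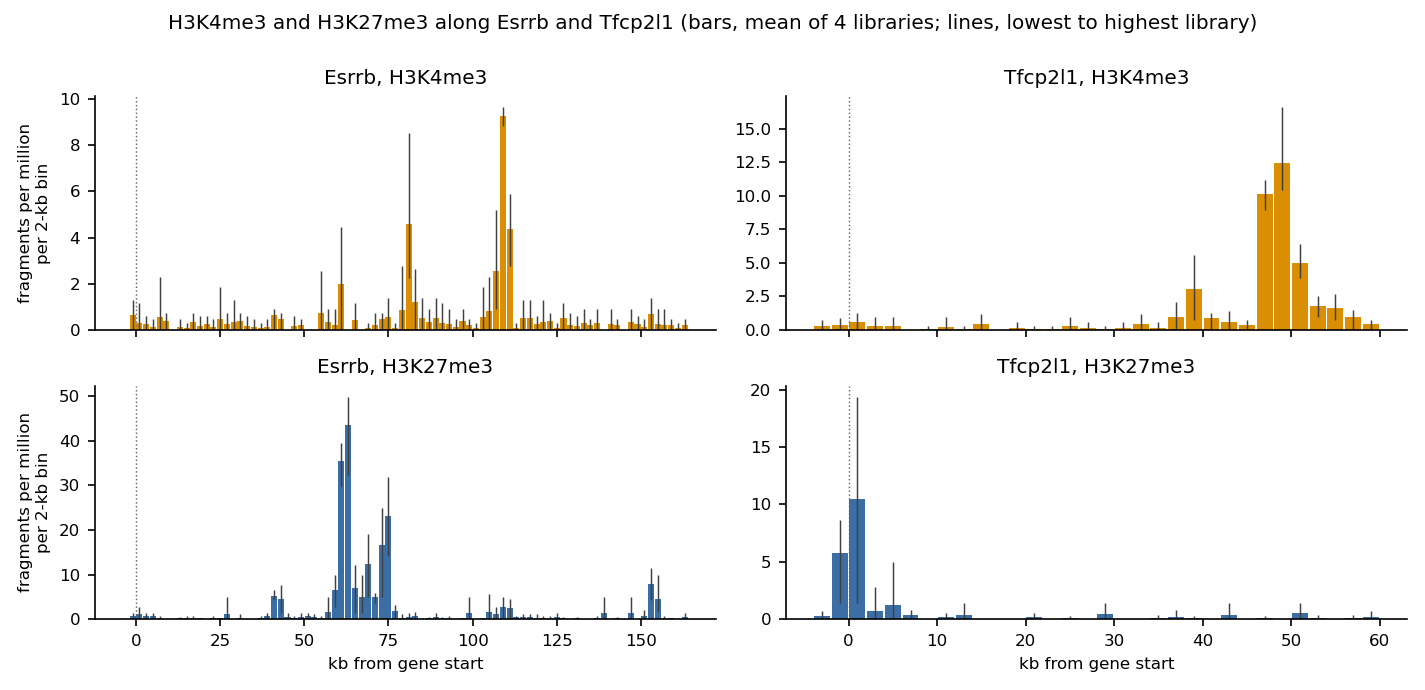
H3K4me3 (top) and H3K27me3 (bottom) along Esrrb (left) and Tfcp2l1 (right) in bins of 2 kb, in FPM; bars are the mean of 4 libraries, vertical lines run from the lowest to the highest library, the dotted line is the annotated gene start, and each panel has its own vertical scale. H3K27me3 of Esrrb lies mainly between 58 and 78 kb and its H3K4me3 around 109 kb with a lower rise around 81 kb, while Tfcp2l1 has H3K27me3 at its start and H3K4me3 between 44 and 52 kb.

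Counted over whole gene bodies, 6 of the 10 members were called higher than IgG for H3K27me3 by limma-voom, all 10 having been tested, beside 27.8% of all gene bodies tested. They were Prdm14, Lin28a, Sall4, Sox2, Esrrb and Tdgf1, so that Esrrb, flat at its annotated start, was called over its body. For H3K4me3, 3 of the 10 were called (Klf4, Lin28a and Tfcp2l1), with 8 tested, beside 44.3% of all bodies, with adjusted p of 0.000302, 0.0463 and 0.00614. Without KO replicate 1 the H3K27me3 calls fell to 3, with Prdm14, Sall4 and Tdgf1 lost at adjusted p of 0.0741, 0.0519 and 0.0584, and Tdgf1 was also lost without WT replicate 1 (0.211). When the first 1 kb of the body was left out, Tdgf1 was no longer called for H3K27me3 (0.340) nor Lin28a for H3K4me3 (0.172). The H3K4me3 calls of Lin28a and Tfcp2l1 were lost without KO replicate 2, whose IgG library left the fit too. Each was also lost with another animal left out (Lin28a without KO replicate 1, Tfcp2l1 without WT replicate 2). In FPM per kb of gene, the mean H3K27me3 level was highest over Sox2 at 14.1 ± 6.35 (SD, n = 4), followed by Prdm14 at 5.53 ± 1.63, Lin28a at 3.91 ± 0.865 and Sall4 at 3.803 ± 1.33, where Prdm14 and Lin28a, and Lin28a and Sall4, differed by less than the larger SD of the pair. The median member was at 2.40 and the median protein-coding body at 0.141. H3K4me3 was highest over Klf4 at 9.75 ± 1.53.

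The same windows were compared between the marks, a test added after the data had been seen. Each level is a share of its own library, so a higher level of a mark here is a larger share and not a larger amount of it. H3K27me3 exceeded H3K4me3 at 6 of the 10 starts (Tdgf1, Sall4, Prdm14, Sox2, Tfcp2l1 and Lin28a), beside 28.7% of all windows tested, and H3K4me3 exceeded H3K27me3 at Klf4 alone, beside 59.5% of all windows (limma-voom over 8 libraries). Over gene bodies H3K27me3 exceeded H3K4me3 at 6 of the 10 (Sall4, Prdm14, Sox2, Tdgf1, Esrrb and Lin28a), beside 24.4% of all bodies tested, and H3K4me3 exceeded H3K27me3 at Klf4 and Tfcp2l1, beside 53.3%. The median log2 difference of the members was 3.07 toward H3K27me3, while the median of all windows tested was -3.12. In pooled fragments H3K27me3 was 316-fold (95% interval 56.3 to 12522) above H3K4me3 at Tdgf1, where H3K4me3 had 1 fragment. The ratio was 54.1 (22.9 to 168) at Sox2, 2.67 (2.04 to 3.52) at Lin28a and 0.0576 (0.0271 to 0.108) at Klf4. Pou5f1 had a pooled ratio of 0.687 (0.485 to 0.967), and its difference across libraries was not called. Lin28a missed the threshold when the animal was kept as a replicate block (log2 difference 1.05, adjusted p 0.0809; 1.22e-06 to 0.690 over 18 alternatives), and without WT replicate 2 (0.221).

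H3K9me3 was present at low counts, although 8 of the 10 members were above the median of protein-coding windows at their starts. The start windows held at most 8 fragments in a library of 5009169 to 6746382, that of Prdm14 being the highest with 8, 4, 5 and 6 fragments (0.990 ± 0.234 FPM, SD, n = 4, above 91.3% of windows), followed by Lin28a (above 84.6%) and Tdgf1 (above 84.2%), and Nanog and Esrrb held 0 in all 4 libraries. A count of 0 over the 23146258 fragments of the 4 libraries allows a level of up to 0.1296 FPM. By limma-voom 0 of the 4 members tested were called above IgG, with 0 higher at an unadjusted p under 0.05, beside 0.325% of all windows tested. Limma-voom adds 0.5 to each count, which sets an IgG window without a fragment above the highest member level of 1.20 FPM. At these IgG depths none of the 4 could have been called higher, so the 0 says nothing about H3K9me3 at the starts. With limma-trend 2 (Prdm14 and Tdgf1) were called, beside 2444 of all 4614 windows tested. Over gene bodies limma-voom called 0 of the 10 above IgG, with 0 higher at an unadjusted p under 0.05, beside 4.92% of all bodies. There limma-trend called 1, beside 2221 of all 17836 bodies tested. In pooled fragments the body level was below IgG, with a 95% interval under 1, at Klf4 (ratio 0.128, 0.0408 to 0.531), Esrrb (0.396, 0.247 to 0.670), Tfcp2l1 (0.202, 0.102 to 0.442) and Tdgf1 (0.114, 0.0293 to 0.644). Gene bodies in general leaned the same way, with a median fitted log2 difference of -2.06 over all bodies tested. The share of all bodies with such an interval was not counted, so these ratios do not set the members apart. The members' median level was 0.305 FPM against 0.148 for all windows.

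IgG held 6 fragments over the 10 start windows and 4 libraries together, of which Klf4 had 3 and Lin28a, Sall4 and Tfcp2l1 had 1 each, and the other 6 windows held 0. A single IgG fragment is worth 3.70 to 6.27 FPM, so a level below that could not be told from 0 in an IgG library.

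KO and WT were compared within each antibody to see whether loss of H2A.B went with another mark level at these genes. By limma-voom, 0 of the members tested at the starts were called, with 3 tested for H3K4me3, 9 for H3K27me3, 4 for H3K9me3 and 0 for IgG, and 0 had an unadjusted p under 0.05. Over all windows tested the share called was also 0% for each antibody, with 402 of 12780 at an unadjusted p under 0.05 for H3K4me3 and 154 of 6492 for H3K27me3, and limma-trend called 0 as well. At an unadjusted p under 0.05 limma-trend had 1 member higher in KO (Pou5f1) and 1 lower (Lin28a) for H3K4me3 at the starts. That tool had 642 of 12780 windows under this threshold in either direction, and the Lin28a levels include the WT library with the shared fragment ends. Gene bodies gave 0 calls for each antibody with both tools. With 2 libraries in each group an exact permutation test of a single gene cannot give a two-sided p under 0.333.

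Klf4 was the only member whose H3K4me3 at the start did not overlap between the genotypes among the 3 tested. KO was 25.7 ± 0.699 and WT 17.5 ± 1.25 FPM (SD, n = 2 each), a difference of 8.26 with a pooled SD of 1.01, and the pairs differed by 8.65 and 7.88. Both pairs of brothers went the same way, but 27.8% of all windows tested had both KO libraries above both WT libraries for H3K4me3, and 6.77% had both below. The fitted log2 difference was 0.52 with a standard error of 0.35 and an adjusted p of 0.999, and the median of all windows was 0.17. Spermatid marker genes moved the same way in sum (298 to 340 in KO, 205 to 284 in WT), and their part in the Klf4 difference was not tested.

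Pou5f1 had a fitted H3K4me3 difference of 0.96 (standard error 0.52) toward KO and Lin28a one of -0.82 (0.52), both with an adjusted p of 0.999 by limma-voom. The first was higher in KO in both pairs, by 4.87 and 7.78 FPM. The second rested on the WT library with the shared fragment ends, which set it 37.0 FPM above its KO brother while the other pair differed by 0.494. With the pair of brothers as a replicate block, 0 members were called, and the differences of Pou5f1 and Lin28a were 0.96 and -1.40 (adjusted p 0.598 and 0.385). Without WT replicate 2, so that the library with the shared ends stood alone for WT and was assumed to vary like KO, Lin28a was called lower in KO (log2 difference -2.92, adjusted p 6.25e-07), 1 of 9 windows called among all.

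For H3K27me3 the fitted log2 differences of the 9 members tested ran from -1.09 (Tfcp2l1, standard error 0.82) to 0.31 (Sox2, standard error 0.56), all with an adjusted p of at least 0.999 by limma-voom. Among them Nanog alone had both KO libraries above both WT libraries, with 6, 1, 4 and 0 fragments, beside 5.48% of all windows tested. KO minus WT was 3.06 FPM at Sox2 with a pooled SD of 5.39, and 5.13 at Tdgf1 with a pooled SD of 10.2, so both were within the spread. For H3K9me3, Sall4 alone of the 4 tested had KO below WT in all libraries, with 3 and 0 fragments against 4 and 4, beside 12.5% of all windows, and 0 of the 4 had KO above WT, beside 16.3%. For H3K27me3, 0 of the 9 had KO below WT, beside 9.43%. Whether the KO effect differed between H3K4me3 and H3K27me3 was tested as an interaction (limma-voom), and 0 of 10 members passed (adjusted p 0.998 for each). The share over all windows was not kept for this test, so this count has no background beside it.

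Over gene bodies the genotypes were separate in few members. For H3K4me3, both KO libraries were above both WT libraries at Klf4 and below them at Lin28a among the 8 tested, beside 14.5% and 7.77% of all bodies. At Lin28a the KO levels were 0.765 and 0.760 FPM per kb, against 0.768 in WT replicate 2. WT replicate 1, the library with the shared fragment ends, had 3.04. For H3K27me3 the same held at Sox2 (above) and Lin28a (below) among 10, beside 9.19% and 8.46%. For H3K9me3 they were separate at Klf4 (KO above) and at Nanog and Sox2 (KO below) among 10, beside 7.16% and 9.07%. These counts were low, with 6 and 4 fragments in KO against 4 and 1 in WT at Klf4. Nanog had 1 and 2 against 3 and 5, and Sox2 had 3 and 1 against 3 and 5. In IgG, Esrrb was above and 0 were below among the 2 bodies tested, beside 17.0% and 13.3%, while 0 starts were tested (10.6% above and 3.53% below among all 85 IgG windows tested).

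**Figure D4:**
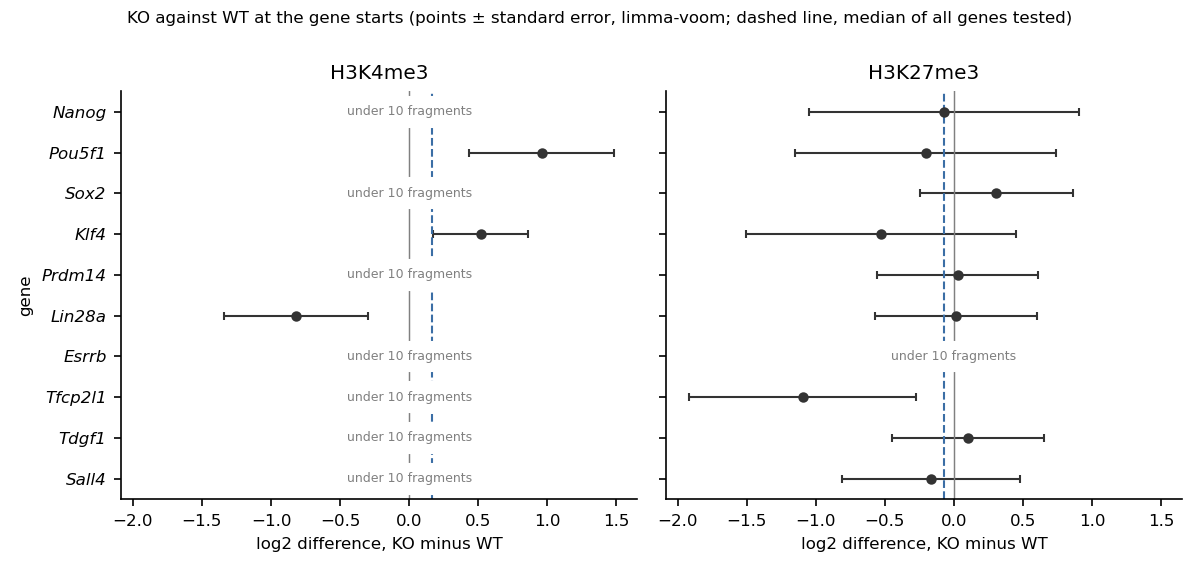
Log2 difference in fragments at the gene starts between KO and WT (horizontal axis) for H3K4me3 (left) and H3K27me3 (right); points are limma-voom estimates from 2 KO and 2 WT libraries, bars 1 standard error, and the dashed line the median of all genes tested (0.17 and -0.07). Members with fewer than 10 fragments over the 4 libraries were not tested, and each difference had an adjusted p of at least 0.999.

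The study compares fragment lengths between KO and WT, since short fragments come from partly unwrapped nucleosomes or other bound proteins. Small fragments (120 bp or less) were counted as a share of small and large (150 bp or more) fragments, summed over the 10 start windows. For H3K4me3 the share was 43.6% (95% Wilson interval 31.4 to 56.7) and 44.03% (36.5 to 51.8) in KO and 70.4% (57.2 to 80.9) and 25.4% (16.5 to 36.9) in WT. The WT libraries lay on both sides of the KO libraries, and the difference of -4.04 percentage points was smaller than the pooled SD of 22.5. Over all protein-coding windows the share was 39.6% and 38.2% in KO and 29.1% and 24.5% in WT, higher in KO in both pairs by 10.5 and 13.8 points. The high WT value came with the stacked Lin28a fragments, which are small: with fragments sharing a start or an end counted once, the members' shares were 41.7% and 41.7% in KO and 51.6% and 24.2% in WT.

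With the libraries of each genotype summed, the 3 members with most H3K4me3 fragments did not go the same way. Klf4 had 57 small and 54 large fragments in KO (51.4% small) and 15 and 32 in WT (31.9%). Pou5f1 had 19 and 40 in KO (32.2%) and 3 and 16 in WT (15.8%). Lin28a had 41.4% small in KO and 76.1% in WT, a value set by WT replicate 1, the library with the shared ends (31 small and 5 large). WT replicate 2 had 4 small and 6 large, and KO had 5 and 7 in replicate 1 and 7 and 10 in replicate 2. For H3K27me3, the members' share was 18.4% and 24.7% in KO and 10.8% and 22.2% in WT, higher in KO in both pairs by 7.61 and 2.47 points, with a mean difference of 5.04 and a pooled SD of 6.53. Over all windows the pairs differed by 4.75 and 8.82 points, so the members went the same way as all windows. Without WT replicate 1 the sign turned (-0.676 points). H3K9me3 differed by 1.19 points with pairs of opposite sign, and IgG had too few fragments at the members for a comparison. Over all windows the share was also higher in KO in both pairs for IgG, the control for untargeted cutting, by 4.62 and 5.51 points, and for H3K9me3 by 1.87 and 1.23 points. Over whole IgG libraries the pairs differed by 8.25 and 8.29 points, and the part of this shift in the members' shares was not tested.

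**Figure D5:**
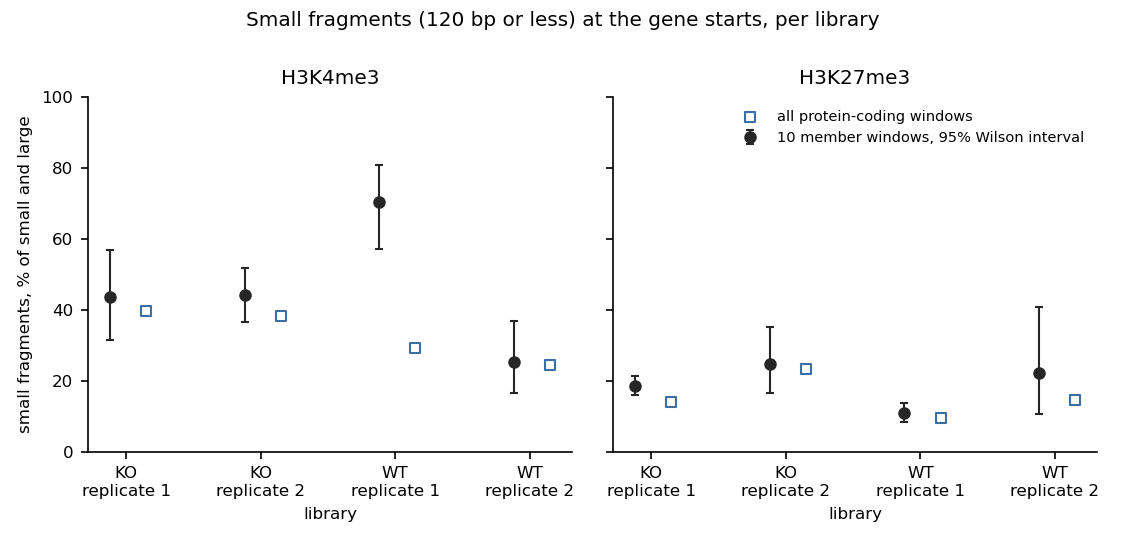
Small fragments (120 bp or less) as a percentage of small and large (150 bp or more) fragments at the gene starts in each H3K4me3 and H3K27me3 library; black points are the sum over the 10 pluripotency genes with 95% Wilson intervals, and open squares all protein-coding windows. WT replicate 1 of H3K4me3 stands at 70.4% against 29.1% over all windows, while the other 7 black points lie within 8 points of their square.

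The wider network, a list of 41 other genes linked to pluripotency, was counted in the same way. At the starts, 15 of 41 genes were called above IgG for H3K27me3 (22 tested) and 11 of 41 for H3K4me3 (16 tested), beside the 65.2% and 73.6% of all windows tested. The 5 called with the largest fitted H3K27me3 difference were Tbx3, Sall1, Myc, Tfap2c and Nodal, the last of these the ligand that needs the Tdgf1 co-receptor. IgG had no fragment at any of the 5, and in pooled fragments they were at least 13.3-fold (Nodal) to at least 16.9-fold (Myc) above the IgG floor. For H3K4me3 they were Klf2, Klf5, Stat3, Il6st and Jarid2. Klf2 and Klf5 are relatives of Klf4, and Stat3 and Il6st belong to the LIF signalling pathway. Klf2 had a pooled ratio to IgG of 21.9 (95% interval 3.88 to 868) and Jarid2 one of 9.96 (1.75 to 397), each with 1 IgG fragment, and Klf5, Stat3 and Il6st, with none, were at least 2.74-fold, 2.70-fold and 2.63-fold above the floor. Ratios to 1 fragment and bounds set by the floor have different references, so they give no order between the former and the latter genes. Over gene bodies 19 of 41 genes were called for H3K27me3 (37 tested) and 11 of 41 for H3K4me3 (31 tested), beside the 27.8% and 44.3% of all bodies tested. Tbx3, Otx2, Myc, Sall1 and Nodal had the largest fitted H3K27me3 differences, with at least 57.01-fold at Tbx3, at least 24.6-fold at Nodal and a ratio of 83.3 (28.5 to 404) at Otx2. Klf2, Zfp281, Trim28 and Klf5 were among the 5 for H3K4me3, with ratios of 22.8 (4.05 to 904), 12.3 (3.37 to 102), 6.67 (3.36 to 15.5) and 10.6 (2.90 to 88.3). By limma-voom 0 of these genes were called above IgG for H3K9me3 and 0 differed between KO and WT, with 0 at an unadjusted p under 0.05 in the latter.

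For each member with at least 20 fragments of a mark, the protein-coding gene with the most similar levels over the 12 mark libraries was found as the smallest root mean square distance on the log2(FPM + 1) scale. It was Sfrp5 for Tdgf1 (0.146), Tead3 for Sox2 (0.188), Ormdl3 for Klf4 (0.264), Klk13 for Sall4 (0.281), Gng4 for Tfcp2l1 (0.352), Gramd2 for Pou5f1 (0.353), Sync for Prdm14 (0.367) and Fabp3 for Lin28a (0.586). Tdgf1 and Sox2 thus had close neighbours in level, and Lin28a the most distant one. For comparison, 10 genes of the developmental Polycomb class summed to 435 to 554 FPM of H3K27me3 and the 10 members to 117 to 211, while 10 housekeeping genes summed to 0 to 4.21 FPM of H3K27me3 and 138 to 204 of H3K4me3, against 35.3 to 68.8 for the members.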

How the data were processed

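Per the labels and the study's methods, the authors sorted haploid spermatids of 2 KO and 2 WT brothers, ran AutoCUT&RUN with 4 antibodies, sequenced pairs of 25-bp reads, aligned them to mm10 with Bowtie2 (version 2.3.4.3 in the submitters' processing notes) and deposited 1 list of fragments of 23 to 700 bp per library. These deposited lists hold coordinates and no counts, coverage or scores. They still hold fragments with identical ends, although the methods name duplicate removal, so each distinct fragment was counted once per library, and fragments were assigned by their midpoint to GENCODE vM21 start windows (1000 bp on either side) and gene bodies. Levels (FPM) are distinct fragments for every 1000000 on chromosomes 1 to 19, X and Y. Pooled ratios have exact 95% intervals.

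Tests were run in R 4.3.3 with limma 3.58.1 on all protein-coding genes with at least 10 fragments over the libraries of the fit (voom, which adds 0.5 to each count, group means, Benjamini-Hochberg). Mark against IgG used 8 libraries and KO against WT used 4, without a block. The design named tests for window counts, and since the deposited lists are fragments and not count tables no negative binomial model was used. When the fit was tested on simulated data, many lower calls against IgG were false, most of them for H3K9me3, so lower calls (for H3K9me3 bodies 6 of 10 members and 11242 of 17836 genes) are not used, and fitted differences from IgG understate high ones. Replicate numbers mark the pairs of brothers in the methods, and deviations of same-numbered KO and WT libraries from their group means correlated by 0.259 (H3K4me3), 0.199 (H3K27me3), 0.230 (H3K9me3) and 0.212 (IgG).

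The members and all gene lists were chosen with earlier results of these data known. Named genes are the 10 members, from the wider network the 5 genes called with the largest difference from IgG per mark (1 is not reported here), and for each member with at least 20 fragments of a mark its nearest gene in level. The comparison of H3K27me3 with H3K4me3, the stretches inside Esrrb and Tfcp2l1 and the count of 1 fragment per start and end were added after seeing the data. Alternatives covered the counting of identical fragments, assignment, window, scaling, filter, tool, gene set, block and left-out libraries. Figures were drawn with matplotlib 3.10.9, and counts were made with pandas 2.3.3, SciPy 1.17.1 and NumPy 2.4.6 in Python 3.11.15.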

Additional observations from a re-analysis of the deposited data

How the results depend on the processing

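The number of members called above IgG for H3K4me3 at the starts, 3, was 1 with every deposited fragment counted, 1 with 500 bp on either side, 0 with libraries scaled to the fragments in all windows, and 0 to 3 with libraries left out (0 without KO replicate 1 and 0 without KO replicate 2). That scaling moved the median log2 difference of all windows from 1.93 to 0.77 and the calls from 9487 higher and 252 lower to 2733 and 1293 (97.4% to 67.9% higher); for H3K27me3 the median went from 2.09 to 1.38 and the calls from 4371 and 258 to 3450 and 779 (94.4% to 81.6%), and over bodies the share of higher calls went from 82.0% to 64.1% for H3K4me3 and from 52.7% to 41.1% for H3K27me3. Over bodies the 3 H3K4me3 calls became 1 with every deposited fragment and 1 to 4 with libraries left out, and the 6 H3K27me3 calls 3 to 6 (3 without KO replicate 1). For H3K9me3, limma-trend called 2 at starts and 1 over bodies in place of 0 and reversed the sign for Prdm14 (0.99) and Tdgf1 (0.60) at starts and Sox2 (0.59) over its body; over all windows it called 2444 against 15 at starts and 2221 against 878 over bodies. Both tools add a constant: limma-voom adds 0.5 to each count, and limma-trend was run on log2(FPM + 1). The cause of the difference was not tested.

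Between KO and WT the count of members called was 0 under every alternative run except without WT replicate 2 (H3K4me3 starts, 0 to 1 over the left-out libraries). Over all genes the most called in place of 0 was 9 for H3K4me3 starts (without WT replicate 2), 15 for H3K27me3 starts (without KO replicate 1; 9 with 2 kb on either side), 5 for H3K27me3 bodies (without WT replicate 1), 53 for H3K9me3 bodies (without KO replicate 1; 45 with the replicate block) and 37 for IgG bodies (with the block). With the replicate block, 3 members were called for H3K4me3 and 6 for H3K27me3 against IgG at starts, and Lin28a left the H3K27me3 against H3K4me3 calls; the block changed no other call of a member at the starts in the direction reported. Where H3K4me3 exceeded H3K27me3, the counts were 1 to 2 at starts and 1 to 2 over bodies with libraries left out. The small-fragment difference for H3K4me3, -4.04 points, ran from -26.7 to 18.7 with libraries left out. KO against WT without a whole pair has no residual degrees of freedom and was not fitted, and IgG starts could not be fitted with narrower windows or a minimum of 30 fragments. Depth limits the IgG and the replicate 2 H3K27me3 libraries most.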
